A study of Mus musculus with 8 samples.

Results

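Genes of the cells that build brain blood vessels were followed in the striatum of R6/2 mice, a transgenic model of Huntington's disease, and of wild-type (WT) mice. The list held 48 names: 32 genes of endothelial cells, 8 of pericytes, 6 of vascular smooth muscle cells and 2 names, Robo4x and Lef1x, that matched no gene on the array. A member was a gene with a non-control probe carrying a listed name. Of the 48 names, 46 had a probe, with 59 probes among them, and 44 genes were tested, out of 17817 tested genes and 24659 named genes in all. All 44 were well above background on all 8 arrays.

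The striatum of 4-week-old male mice was measured, with 4 arrays of WT and 4 of R6/2 RNA. The R6/2 line carries, in all its cells, a fragment of the human huntingtin gene that encodes an expanded polyglutamine tract, driven by the human gene's own promoter. The WT mice lack it, and no treatment was given in the labels. The labels number the samples of each genotype 1 to 4 and do not say whether these were different animals. The tests therefore rest on the spread among the arrays alone, and that spread may be technical in part.

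Brain endothelial cells are sealed to each other by tight junctions and carry transporters that feed the brain and pumps that return drugs and toxins to the blood. Pericytes sit on capillaries within the same basement membrane and depend on platelet-derived growth factor from the endothelium. Smooth muscle cells wrap arterioles and contract through a smooth muscle actin and myosin apparatus. These cells make up a small share of a striatal sample, whose RNA comes mostly from neurons and glia.

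Probe sequences of Tagln and of 3 genes read by 2 probes are shown first. The log2 differences, R6/2 minus WT, of the 2 probes were -0.56 and -0.71 for Tpm2, -0.13 and -0.59 for Mylk and -0.37 and -0.47 for Pdgfb. Sequences are not shown for Kdr (0.03 and -0.48), Ocln (0.02 and -0.45) and Vwf (-0.83 and -0.04), whose probes differed in sign or size. Their probe starts lie 1086, 1145 and 94445 bases apart. Each line gives the first 30 bases of a 60-base probe, 5′ to 3′, as the scanner files hold it, with the mm9 position of the whole probe.
Tagln (chr9:45738097-45738156, minus strand): ctttgaaggagacccagcccagcctctaca
Tpm2, brighter probe (chr4:43532262-43532321, minus strand): ggagatgcagctgaaggaagccaagcacat
Tpm2, other probe (chr4:43531276-43531335, minus strand): attccaccaaagaggacaaatacgaagaag
Mylk, brighter probe (chr16:34953958-34954017, plus strand): gcaagagaattgcaagatcaaggccagccc
Mylk, other probe (chr16:35001266-35001325, plus strand): aggacatttatcatgtttcttccatcctga
Pdgfb, brighter probe (chr15:79826376-79826435, minus strand): gttccttctgcttccttcagtttgtaaagt
Pdgfb, dimmer probe (chr15:79827438-79827497, minus strand): actccaggctgcaggcttctcttgactcca
The probe starts lie 986 bases apart for Tpm2, 1062 for Pdgfb and 47308 for Mylk, and no pair overlaps.

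None of the 44 tested vascular genes passed the test of R6/2 against WT (0 of 44 at an adjusted p under 0.05, limma with Benjamini-Hochberg adjustment over 35121 probes), where 1.91% of all tested genes did. At an unadjusted p under 0.05 there were 6 of 44, against 18.9% of all genes. By the brightest probe of each gene, the nearest to the threshold was Tagln, which encodes the smooth muscle actin-binding protein transgelin, with an adjusted p of 0.0614. On the same probes, the 4 R6/2 arrays did not overlap the 4 WT arrays in 2 of 44 genes, Tagln on the low side and Abcg2 on the high side, against 14.4% of all genes. In a bulk sample, fewer cells of a type and less RNA per cell cannot be told apart.

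Values below are log2 signals scaled so that 0 is the 75th percentile of the array, differences are R6/2 minus WT on that log2 scale with the limma standard error (SE), and means carry the SD over 4 arrays. Signals of different probes depend on the probe and were not compared with each other. Of the 44 genes, 34 had a negative difference (77.3%, against 46.1% of all genes). The median difference was -0.17 for endothelial genes (21 of 30 negative), -0.15 for pericyte genes (8 of 8 negative) and -0.17 for smooth muscle genes (5 of 6 negative), beside 0.02 over all genes. Several lists of other cell types also leaned to negative differences, with 9 of 10 neuron genes (median -0.18), 10 of 12 perivascular fibroblast genes (-0.07), 9 of 11 microglia and macrophage genes (-0.09), 7 of 9 choroid plexus genes (-0.17) and 8 of 11 astrocyte genes (-0.09). Oligodendrocyte genes had 5 of 9 negative (-0.02), ependymal genes 1 of 6 (0.19) and red cell genes 0 of 6 (0.56). The vascular medians shrank when array WT 3 was left out, to -0.047, -0.001 and -0.055 in the same order, with 27 of 44 differences negative (61.4%, against 48.6% of all genes). Without WT 3 the choroid plexus genes had 0 of 9 negative (median 0.13). Neuron genes then had 9 of 10 negative (-0.24) and astrocyte genes 8 of 11 (-0.10). Perivascular fibroblast genes had 9 of 12 negative (-0.06) and microglia and macrophage genes 8 of 11 (-0.08). The smooth muscle median was -0.051 without R6/2 2 and -0.253 without R6/2 3.

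**Figure D1:**
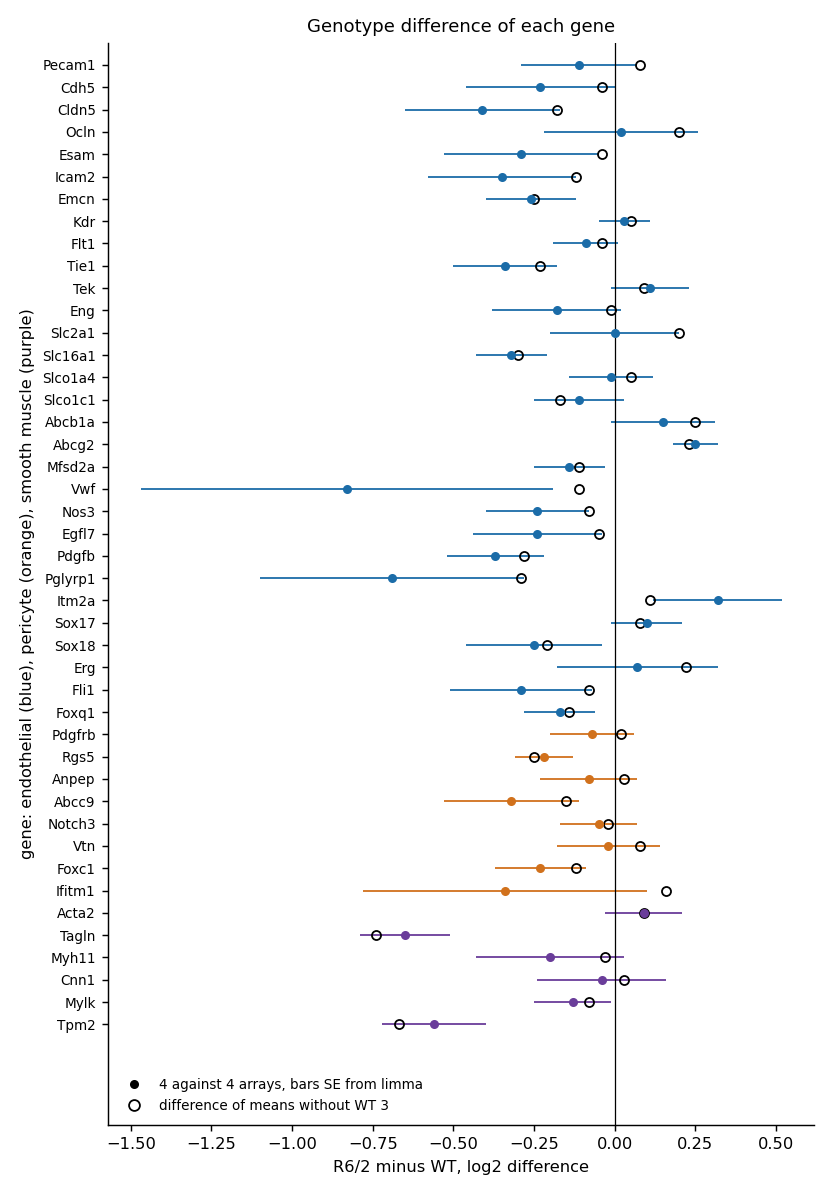
R6/2 minus WT difference (log2, horizontal axis) of each of the 44 tested genes, as filled points with SE bars from limma over 4 against 4 arrays, coloured by class, and as open circles without WT 3. Most filled points lie left of 0, while 17 of the 44 open circles lie at or right of 0 and Tagln and Tpm2 stay at -0.74 and -0.67.

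The genes also varied together between arrays of one genotype, which are named here by genotype and replicate number. WT 3 was the highest WT array for 30 of the 44 genes (68.2%, against 25.4% of all genes) and the highest of all 8 arrays for 26 (59.1%, against 16.1%). It was the lowest WT array for 6 of 44 (13.6%), against 43.4% of all genes, the largest such share among the WT arrays. R6/2 3 was the highest R6/2 array for 35 of 44 genes (79.5%, against 21.8% of all genes). It was the lowest R6/2 array for 0 of 44, against 33.9% of all genes. R6/2 4 was the lowest for 22 of 44 (50%, against 26.5%), including 7 of the 8 pericyte genes. R6/2 2 was the lowest R6/2 array for all 6 smooth muscle genes. Lists of other cells shared parts of this order: R6/2 3 was the highest R6/2 array for 7 of 9 oligodendrocyte and 8 of 11 astrocyte genes, and R6/2 4 the lowest for 8 of 9 oligodendrocyte, 6 of 11 astrocyte and 5 of 6 red cell genes.

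Averaged over the 30 endothelial genes, with each gene centred on its mean over the 8 arrays, WT 1 to 4 stood at -0.13, -0.08, 0.45 and 0.08. R6/2 1 to 4 stood at -0.16, -0.08, 0.13 and -0.22 on the same measure. The 8 pericyte genes gave -0.02, -0.11, 0.49 and -0.03 in WT and -0.01, -0.14, 0.13 and -0.31 in R6/2. Endothelial and pericyte genes thus stood highest together on WT 3 and lowest together on R6/2 4. The 6 smooth muscle genes gave 0.14, 0.16, 0.17 and 0.02 in WT and -0.01, -0.45, 0.14 and -0.17 in R6/2. Their mean thus did not set WT 3 apart, and R6/2 2 was lowest. Single genes parted on WT 3. WT 3 minus the mean of the other WT arrays was 0.70 for Myh11, 0.27 for Cnn1, 0.19 for Mylk and 0 for Acta2. It was -0.36 for Tagln and -0.46 for Tpm2.

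**Figure D2:**
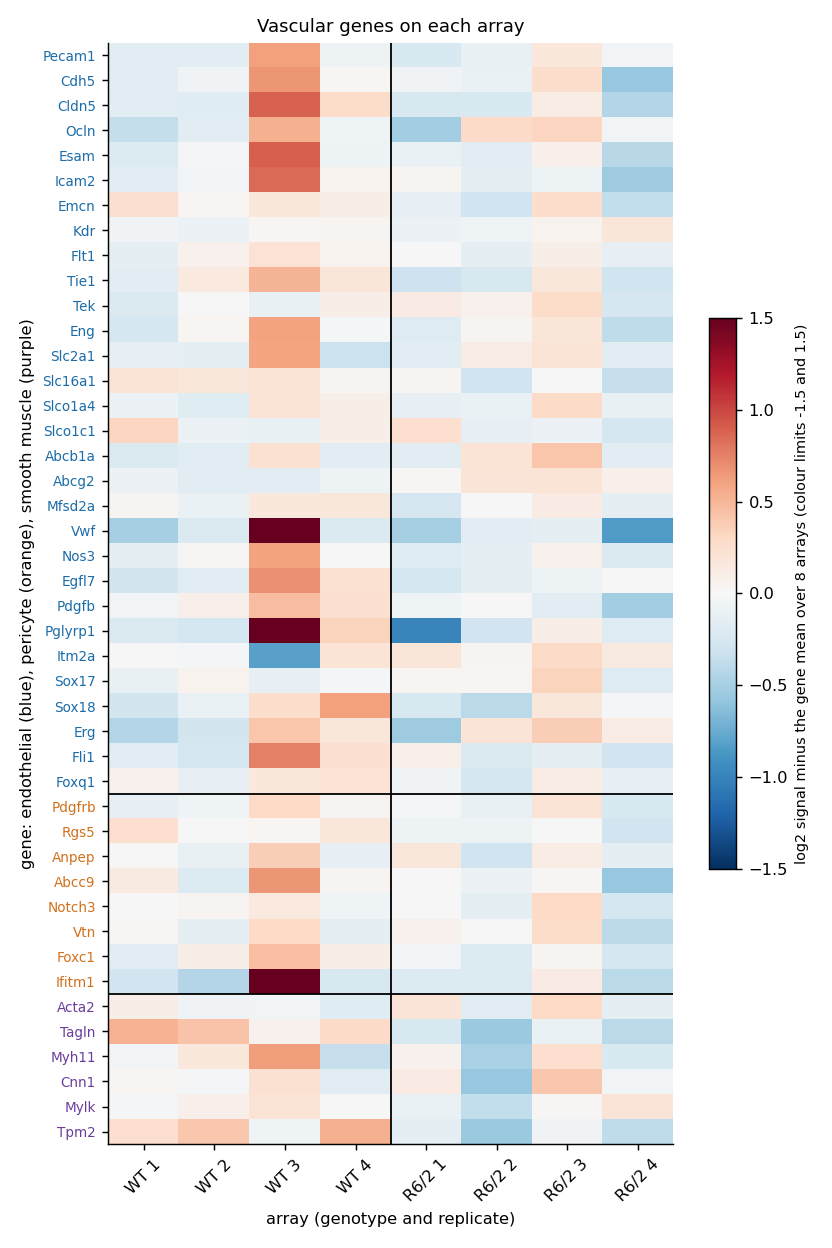
Heat map of the 44 tested genes (rows, grouped as endothelial, pericyte and smooth muscle) on the 8 arrays (columns), coloured by log2 signal minus the gene's mean over the arrays, with colours capped at -1.5 and 1.5. The WT 3 column is red for most endothelial and pericyte genes, darkest for Vwf, Pglyrp1 and Ifitm1, and Itm2a is blue there.

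**Figure D3:**
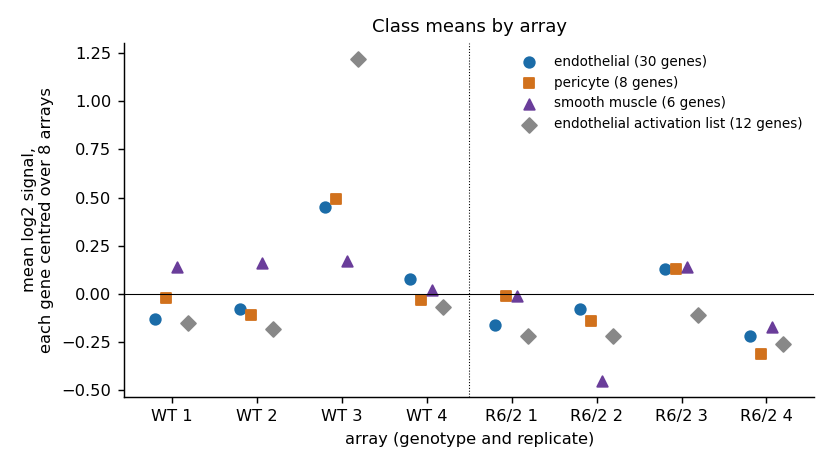
Mean centred log2 signal (vertical axis) of the endothelial, pericyte and smooth muscle genes and of a list of endothelial activation genes on each array (horizontal axis). The activation list stands at 1.22 on WT 3 and between -0.26 and -0.07 on the other 7 arrays, a mean carried by Lcn2 and Lrg1, without which it stands at 0.45 on WT 3 and between -0.17 and 0.04 elsewhere.

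Other cell types were read on the same arrays. Microglia and macrophage genes (11 of 12 tested, 0 called) had a centred mean of 0.35 on WT 3 and between -0.21 and 0.08 elsewhere. Their summed scaled signal ran from 132 to 155 in WT and from 115 to 131 in R6/2, and most of it came from Itgam, an integrin of microglia, without which it ran from 47.6 to 61.1 in WT and from 49.4 to 51.5 in R6/2. Choroid plexus genes (9 of 9 tested, 0 called) had their highest mean, 1.29, on WT 3, but stood at 0.50 on WT 1, and their sum ran from 56.2 to 246 in WT and from 47.5 to 190 in R6/2. Perivascular fibroblast genes (12 of 12 tested, 0 called) stood at 0.07 on WT 3 and astrocyte genes (11 of 11 tested, 0 called) at 0.09. These counts take the brightest probe of each gene. A dimmer probe of Gfap, the astrocyte filament protein gene, was called higher in R6/2 (1.20 ± 0.21, adjusted p 0.0431) where the brightest gave 0.34 ± 0.11 (adjusted p 0.168), and a dimmer probe of Slc4a4, an astrocyte bicarbonate carrier, was called lower (-0.45 ± 0.08, adjusted p 0.0431) where the brightest gave -0.18 ± 0.11. Another Gfap probe had the largest difference of the Gfap probes, 2.33 ± 0.47, and was not called (adjusted p 0.0584). On that probe WT 3 stood at 0.42, the other WT arrays from -1.74 to -1.72 and R6/2 from 0.86 to 1.32. The part of these cells in the vascular values was not tested.

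The junction and surface proteins of endothelial cells held 7 tested genes, 6 of them with a negative difference. Cldn5 encodes claudin-5, the main sealing protein of the blood-brain barrier's tight junctions. It stood at 1.94, 1.93, 3.0 and 2.39 in WT 1 to 4 (mean 2.32 ± 0.51, SD, n = 4) and at 1.87, 1.88, 2.22 and 1.67 in R6/2 1 to 4 (1.91 ± 0.23). WT 3 was the highest of all arrays and the groups overlapped, with a difference of -0.41 ± 0.24 (adjusted p 0.445) and of -0.18 without WT 3.

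Pecam1 encodes the endothelial adhesion molecule CD31. Its WT values were -2.09, -2.09, -1.32 and -2.01 and its R6/2 values -2.16, -2.05, -1.78 and -1.97. The array numbered 3 was the highest in both genotypes, and the difference of -0.11 ± 0.18 (adjusted p 0.805) became 0.08 without WT 3. Cdh5 encodes VE-cadherin of the adherens junction. It stood at -1.34, -1.22, -0.51 and -1.15 in WT and at -1.22, -1.27, -0.90 and -1.74 in R6/2. Its difference was -0.23 ± 0.23 (adjusted p 0.662), and -0.04 without WT 3.

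WT 3 also exceeded the mean of the other 3 WT arrays 2.01-fold for Esam, an endothelial adhesion molecule of tight junctions, and 1.86-fold for Icam2, a ligand for leukocyte integrins. Their differences were -0.29 ± 0.24 and -0.35 ± 0.23 with WT 3, and -0.04 and -0.12 without it. Emcn, which encodes the sialomucin endomucin, was not high on WT 3 (-1.84, -2.04, -1.91 and -1.99 in WT) and had a difference of -0.26 ± 0.14 (adjusted p 0.382). For Ocln, which encodes the tight junction protein occludin, the brighter probe gave 0.02 ± 0.24 and the other, 1145 bases away, -0.45 ± 0.33. Ly75, an endocytic receptor best known from dendritic cells, was not tested, since it was well above background on 0 WT arrays and 1 R6/2 array.

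The endothelial receptors held 5 tested genes, with 3 negative differences. Kdr and Flt1 encode receptors for vascular endothelial growth factor (VEGF). The brighter Kdr probe stood at 2.29, 2.26, 2.37 and 2.38 in WT and at 2.25, 2.28, 2.39 and 2.52 in R6/2, with a difference of 0.03 ± 0.08 (adjusted p 0.869). The second probe, which starts 1086 bases away, stood at 0.08, -0.13, 0.11 and 0.30 in WT and at 0.10, -0.56, -0.14 and -0.97 in R6/2, a difference of -0.48 ± 0.22 (adjusted p 0.323). The 2 probes parted on R6/2 4, the highest array for one and the lowest for the other. Flt1 gave -0.09 ± 0.10 and, at a second tested probe, -0.11 ± 0.15.

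Tie1 and Tek encode the paired Tie receptors, Tek being the receptor for angiopoietins. Tie1 stood at -2.64, -2.34, -1.98 and -2.30 in WT and at -2.80, -2.73, -2.31 and -2.78 in R6/2, so R6/2 3 lay within the WT values, between those of WT 2 and WT 4, while the other 3 R6/2 arrays lay below all WT arrays. Its difference was -0.34 ± 0.16 (adjusted p 0.337), and -0.23 without WT 3. Tek gave 0.11 ± 0.12 and Eng, a co-receptor for TGF-beta ligands, -0.18 ± 0.20, which was -0.01 without WT 3. Flt4, the receptor of lymphatic growth factors, was well above background on WT 2 alone, with a processed signal of 312 there and of 2.22 to 9.38 on the other 7 arrays, so WT was at least 1.67-fold higher by a bound that rests on that array.

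The blood-brain barrier transporters split evenly around 0, with 4 of 7 differences negative and a median of -0.01. Abcg2 encodes the drug efflux pump BCRP. Its WT values were 1.72, 1.66, 1.64 and 1.74 (mean 1.69 ± 0.05, n = 4) and its R6/2 values 1.83, 2.01, 2.02 and 1.89 (1.94 ± 0.09, n = 4). All 4 R6/2 arrays lay above all 4 WT arrays, as they did for 7.61% of all genes, and the difference was 0.25 ± 0.07 (1.19-fold, adjusted p 0.137, range 0.0857 to 0.296 over the alternatives). The other efflux pump, Abcb1a, which encodes P-glycoprotein, gave 0.15 ± 0.16 (adjusted p 0.688).

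Slc2a1 encodes the glucose transporter GLUT1. It stood at 3.87, 3.84, 4.58 and 3.67 in WT and at 3.83, 4.10, 4.20 and 3.83 in R6/2, and the group means were equal at 3.99. Without WT 3 the difference was 0.20. Slc16a1, which encodes a carrier of lactate and ketone bodies, had WT values of -3.24, -3.28, -3.24 and -3.41 and R6/2 values of -3.41, -3.75, -3.46 and -3.80. Its groups met at WT 4 and R6/2 1, and the difference was -0.32 ± 0.11 (adjusted p 0.189), with -0.30 when WT 3 was left out. Mfsd2a, the barrier's carrier of omega-3 lipids, gave -0.14 ± 0.11, and the organic anion carriers Slco1a4 and Slco1c1 gave -0.01 ± 0.13 and -0.11 ± 0.14. The 2 Slco1c1 probes gave the same difference of -0.11.

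The secreted factors and other endothelial genes held the members farthest out on WT 3. Vwf encodes von Willebrand factor, the clotting protein that endothelial cells store and release. It stood at -0.34, -0.05, 2.75 and -0.05 in WT and at -0.34, -0.01, 0.03 and -0.69 in R6/2. WT 3 was 7.47-fold above the mean of the other WT arrays, which lay within the R6/2 range. The difference was -0.83 ± 0.64 (adjusted p 0.561) over all arrays and -0.11 without WT 3. A dimmer Vwf probe, which starts 94445 bases away, also had its highest WT value on WT 3 (-2.95, with -5.15 to -4.66 on the other WT arrays and -5.10 to -3.39 in R6/2). Pglyrp1, a peptidoglycan recognition protein, was 2.97-fold higher on WT 3 than on the other WT arrays, with a difference of -0.69 ± 0.41 that became -0.29 without it. Itm2a, a membrane protein gene, went the other way, at 2.79, 2.76, 1.98 and 3.0 in WT and from 2.84 to 3.08 in R6/2.

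Pdgfb encodes the growth factor with which endothelial cells recruit pericytes. Its brighter probe stood at 1.34, 1.46, 1.84 and 1.62 in WT and at 1.31, 1.39, 1.21 and 0.86 in R6/2, with a difference of -0.37 ± 0.15 (adjusted p 0.252). R6/2 2 lay above WT 1, so the groups overlapped. The dimmer probe, shown above, stood at -4.30, -4.18, -4.06 and -4.28 in WT and at -4.78, -4.57, -4.56 and -4.80 in R6/2. All 4 R6/2 arrays were below all 4 WT arrays there, with a difference of -0.47 ± 0.09 (adjusted p 0.0523). Nos3, endothelial nitric oxide synthase, gave -0.24 ± 0.16 and -0.18 ± 0.19 at its 2 probes, and Egfl7, a secreted vascular matrix protein, gave -0.24 ± 0.20. Without WT 3 the brighter Nos3 probe gave -0.08 and Egfl7 gave -0.05.

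The endothelial transcription factors held 5 tested genes, with 3 negative differences from -0.29 to -0.17. Fli1 and Erg are ETS factors, and Fli1 is also made by blood cells and microglia. Fli1 was highest on WT 3, at -1.10 against -2.15 to -1.62 on the other 7 arrays, and gave -0.29 ± 0.22 with that array and -0.08 without it. Erg gave 0.07 ± 0.25 and Sox17 gave 0.10 ± 0.11, with 0.13 ± 0.12 at a second probe. Sox18 gave -0.25 ± 0.21, with WT 4 as its highest array. Foxq1, a forkhead factor, gave -0.17 ± 0.11.

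All 8 pericyte genes had negative differences, from -0.34 to -0.02, and none passed the test. Rgs5, a regulator of G-protein signalling much used as a pericyte marker, stood at 2.19, 1.93, 1.96 and 2.11 in WT (mean 2.05 ± 0.12, n = 4) and at 1.86, 1.86, 1.93 and 1.65 in R6/2 (1.83 ± 0.12, n = 4). The groups touched at 1.93, where WT 2 and R6/2 3 met, and R6/2 4 was lowest. The difference was -0.22 ± 0.09 (adjusted p 0.276), and -0.25 without WT 3. Pdgfrb, the receptor for the endothelial factor encoded by Pdgfb, stood at -0.14, -0.09, 0.28 and 0.02 in WT and at -0.04, -0.13, 0.19 and -0.25 in R6/2. Its difference was -0.07 ± 0.13 (adjusted p 0.810), and 0.02 without WT 3.

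Ifitm1, an interferon-induced membrane protein gene, repeated the pattern of Vwf. It stood at -0.77, -0.92, 1.17 and -0.72 in WT and at -0.68, -0.68, -0.35 and -0.88 in R6/2, so that WT 3 lay 3.91-fold above the other WT arrays. Its second probe stood at 1.12 on WT 3 and from -1.0 to -0.42 on the other 7 arrays. The difference of -0.34 ± 0.44 turned to 0.16 without WT 3. Abcc9, a subunit of ATP-sensitive potassium channels in mural cells, gave -0.32 ± 0.21, and -0.15 without WT 3. Foxc1, a forkhead factor, gave -0.23 ± 0.14, Anpep, an aminopeptidase, gave -0.08 ± 0.15, Notch3 gave -0.05 ± 0.12 and Vtn, the matrix protein vitronectin, gave -0.02 ± 0.16.

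**Figure D4:**
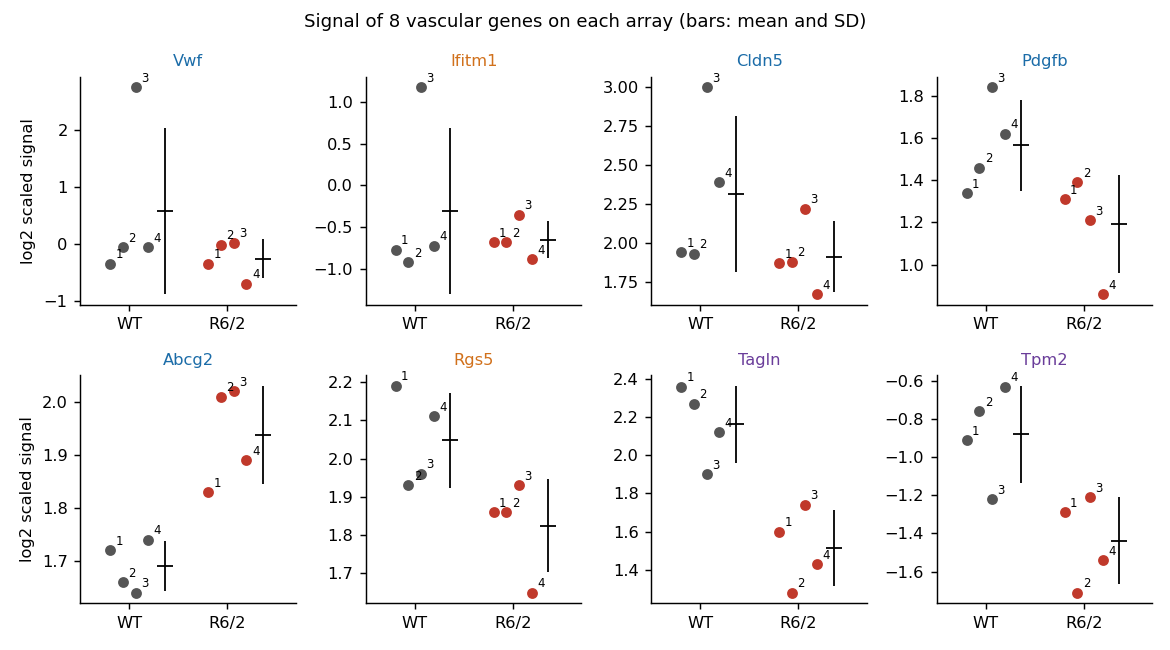
Log2 scaled signal (vertical axis, a different range in each panel) of 8 genes on the 4 WT and 4 R6/2 arrays, numbered by replicate, with the mean and SD at the right of each group. WT 3 stands alone at 2.75 for Vwf and 1.17 for Ifitm1, whereas the groups do not overlap for Tagln and Abcg2.

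By the brightest probe of each gene, the smooth muscle genes held the lowest adjusted p of the list, with differences that varied from gene to gene. Tagln stood at 2.36, 2.27, 1.90 and 2.12 in WT (mean 2.16 ± 0.20, n = 4) and at 1.60, 1.28, 1.74 and 1.43 in R6/2 (1.51 ± 0.20, n = 4). Every R6/2 array lay below every WT array, as for 6.75% of all genes. The difference was -0.65 ± 0.14, so the WT mean was 1.57-fold above the R6/2 mean, with an adjusted p of 0.0614. That p ran from 0.0274 to 0.153 over the alternatives and was under 0.05 in 6 of them, one being the fit without WT 3 (difference -0.74, adjusted p 0.0477).

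Tpm2 encodes beta-tropomyosin, an actin-binding protein of contractile filaments. It stood at -0.91, -0.76, -1.22 and -0.63 in WT (mean -0.88 ± 0.26, n = 4) and at -1.29, -1.71, -1.21 and -1.54 in R6/2 (-1.44 ± 0.23, n = 4). The groups overlapped at the arrays numbered 3 alone. The difference was -0.56 ± 0.16 (adjusted p 0.126), and the second probe gave -0.71 ± 0.26 (adjusted p 0.223). With array weights, in which WT 3 had the lowest weight (0.348), the difference was -0.69 and the adjusted p 0.0465. Mylk encodes myosin light chain kinase. Its brighter probe gave -0.13 ± 0.12 (adjusted p 0.650). The other Mylk probe stood from -3.04 to -2.64 in WT and from -3.89 to -3.07 in R6/2, without overlap, and gave -0.59 ± 0.18 (adjusted p 0.148).

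The remaining contractile genes did not share these values. Acta2, smooth muscle alpha-actin, stood at 1.17, 1.02, 1.03 and 0.89 in WT and at 1.27, 0.92, 1.37 and 0.93 in R6/2, a difference of 0.09 ± 0.12 (adjusted p 0.749). Myh11, the smooth muscle myosin heavy chain, stood at -3.36, -3.16, -2.69 and -3.66 in WT and at -3.25, -3.81, -3.07 and -3.55 in R6/2, a difference of -0.20 ± 0.23 (adjusted p 0.700) that was -0.03 without WT 3. Cnn1, which encodes calponin, gave -0.04 ± 0.20 (adjusted p 0.936). Whether Tagln and Tpm2 differ from Acta2 and Myh11 was not tested.

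Tagln and tropomyosins are also made by cells other than vascular smooth muscle, among them striated muscle and fibroblasts. Of 9 skeletal and heart muscle genes, 5 were tested. Actc1 and Ckm were well above background on 0 arrays, Mb on 1, and Ttn on at most 3 for any of its 4 probes. The summed scaled signal of the 5 tested genes was 5.50 to 12.3 in WT and 1.83 to 2.60 in R6/2. Myl4 carried that sum, which without it was 0.905 to 1.24 in WT and 0.868 to 1.06 in R6/2. Myl4, an atrial and embryonic myosin light chain, was lower in R6/2, with 3.18, 3.46, 2.18 and 3.26 in WT against 0.34, 0.65, -0.06 and 0.59 (difference -2.64 ± 0.29, adjusted p 0.0102). Tnnt2, cardiac troponin T, was higher, with a difference of 0.99 ± 0.16 (adjusted p 0.0307, 0.0508 with replicate number as a block and 0.0828 with no filter on dim probes). Its adjusted p was over 0.05 in each fit that left out 1 array except the one without WT 4 (0.049). Acta1, of the same muscle list, stood from -1.19 to -0.69 in WT and from -1.67 to -1.39 in R6/2, without overlap. Its difference was -0.56 ± 0.12 (adjusted p 0.0637). The groups overlapped for Tnnt3 (-0.75 ± 0.43) and Myl1 (-1.09 ± 0.50). Perivascular fibroblast genes summed to 8.33 to 10.5 in WT and 7.26 to 10.8 in R6/2. The part of these cells in the Tagln and Tpm2 values was not tested.

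The promoters of the vascular genes were searched for motifs, using the 250 bases before each RefSeq gene start in GRCm38.p6. Of the 6 smooth muscle genes, 4 had an entry (Acta2, Cnn1, Mylk and Tpm2). The CArG box, the binding motif of serum response factor, was searched in its strict form (CC, then 6 letters that are each A or T, then GG), which was on neither strand in these 4 and in 1.62% of the promoters of 27025 genes. With 1 mismatch allowed, Acta2 held 2 matches and the other 3 promoters held none, against 21.1% of all promoters with at least 1 match. GGAAG, the core bound by ETS factors, was found on either strand in all 4, in 16 of the 21 endothelial genes with an entry and in 3 of 7 pericyte genes, against 66.9% of all promoters. ACAAAG, a core bound by SOX factors, was found in 6 of 21 endothelial genes and in none of the 4 smooth muscle and 7 pericyte genes, against 18.6%. The promoters of Tpm2 and Acta2 follow, as genes with and without a difference past an unadjusted p of 0.05, with GGAAG or its reverse complement in capitals.
Tpm2 (chr4:43523555-43523804, minus strand): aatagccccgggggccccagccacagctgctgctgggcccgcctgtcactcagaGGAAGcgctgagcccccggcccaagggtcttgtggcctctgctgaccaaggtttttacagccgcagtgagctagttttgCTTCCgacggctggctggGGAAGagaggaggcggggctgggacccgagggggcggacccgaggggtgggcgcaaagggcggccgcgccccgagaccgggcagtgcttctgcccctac
Acta2 (chr19:34255374-34255623, minus strand): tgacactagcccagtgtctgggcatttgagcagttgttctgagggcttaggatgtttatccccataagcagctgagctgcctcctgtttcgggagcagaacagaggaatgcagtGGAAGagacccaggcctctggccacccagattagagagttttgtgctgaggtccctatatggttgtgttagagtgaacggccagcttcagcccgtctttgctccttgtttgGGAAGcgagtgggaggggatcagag
They held 3 and 2 matches, which describe letters in the window and not bound sites.

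The wider vascular pathways were read from lists of related genes. VEGF and angiopoietin genes had 0 of 14 called (10 negative, median -0.10), with the lowest p for Plxnd1, a semaphorin receptor of endothelium and neurons (-0.68 ± 0.17, adjusted p 0.0892) and next for Angpt1, the mural ligand of Tek (0.56 ± 0.16, adjusted p 0.142). Robo4, an endothelial guidance receptor, gave -0.26 ± 0.22. Barrier Wnt and beta-catenin genes had 0 of 17 called (11 negative, median -0.07). Tcf7, a transcription factor of that pathway, gave -0.65 ± 0.14 (adjusted p 0.0679), and Wnt7a, a neural ligand that induces the barrier, gave -0.38 ± 0.10 (adjusted p 0.119). For both, all R6/2 arrays lay below all WT arrays. Lef1, a partner of beta-catenin, gave -0.59 ± 0.28 (adjusted p 0.332), with WT 1 at 1.41 against 0.16 to 0.30 on the other WT arrays, and -0.29 without WT 1.

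Further tight junction genes had 0 of 9 called (median -0.05), with Jam2 at -0.13 ± 0.10 and Lsr, of tricellular junctions, at -0.29 ± 0.29. The 3 tested Jam2 probes ran from -0.13 to 0.73. Lsr stood at 2.39 on WT 3, from 1.17 to 1.23 on the other WT arrays and from 0.85 to 1.47 in R6/2. Further transporters had 0 of 12 called (6 negative, median 0.01). Among them Slc7a5, which carries large neutral amino acids, stood at 0.97, 0.97, 1.02 and 1.12 in WT and at 0.78, 0.71, 0.63 and 0.75 in R6/2 (difference -0.30 ± 0.07, adjusted p 0.0768), while a second probe gave 0.22. Slc38a5, a glutamine carrier, gave -0.79 ± 0.28 (adjusted p 0.211). Other endothelial genes had 0 of 25 called (19 negative, median -0.16, and 0.01 without WT 3). Lmo2, a transcriptional cofactor of endothelial and blood cells, gave -0.63 ± 0.13 (adjusted p 0.0637), and S1pr1, a sphingosine-phosphate receptor, gave -0.16 ± 0.07 (adjusted p 0.327).

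Vascular basement membrane genes had 0 of 13 called, with 12 negative and a median of -0.15 (-0.07 without WT 3). Sparc, a collagen-binding matrix protein, gave -0.44 ± 0.10 (adjusted p 0.0789) and Sparcl1, its astrocytic relative, -0.14 ± 0.06 (adjusted p 0.307), both without overlap of the groups. The 3 tested Sparc probes ran from -0.53 to -0.04. Further pericyte genes had 0 of 19 called (15 negative, median -0.13), with Gucy1a1, a soluble guanylate cyclase subunit, at -0.26 ± 0.09 (adjusted p 0.193) and Zic1, a zinc finger factor, at -0.59 ± 0.21 (adjusted p 0.217). On that Zic1 probe WT 1 stood at 2.86, against 1.83 to 2.09 on the other WT arrays, and a second Zic1 probe gave -0.21. Further contractile genes had 0 of 15 called (10 negative, median -0.07), with Tpm1, alpha-tropomyosin, at -0.36 ± 0.10 (adjusted p 0.126) and Casq2, a calcium-binding protein, at -0.29 ± 0.10 (adjusted p 0.176).

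Notch and TGF-beta genes held the 1 call among these pathway lists (1 of 23, lower in R6/2, beside 1.45% of all genes). Notch1, a receptor of endothelial cells and of neural cells, stood at 1.22, 0.85, 1.32 and 1.31 in WT and at 0.49, 0.52, 0.57 and 0.20 in R6/2. Every R6/2 array lay below every WT array, and the difference was -0.73 ± 0.13 (adjusted p 0.0442). With replicate number as a block the adjusted p was 0.079, under median scaling 0.0803, with no filter on dim probes 0.111, and without WT 3 it was 0.0738. It was over 0.05 in each fit that left out 1 array except the fit without WT 2 (0.0415), and it ran from 0.0184 to 0.129 over all alternatives.

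Genes of endothelial activation and permeability had 0 of 12 called, and 9 of the 12 were highest on WT 3 among WT arrays. Edn1, which encodes the vasoconstrictor endothelin-1, gave -0.45 (adjusted p 0.510). Lcn2 and Lrg1, secreted proteins induced in inflammation, were singled out after their values were seen. Lcn2 stood at 2.79 on WT 3 and from -3.07 to -2.86 on the other 7 arrays, 53.7-fold above the other WT arrays. Lrg1 stood at 1.13 on WT 3 and from -4.93 to -4.41 elsewhere, 55.3-fold above the other WT arrays. Without WT 3 their R6/2 minus WT differences were 0.01 and -0.07.

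Red cell genes, a measure of blood left in the tissue, had 6 of 6 tested differences positive with a median of 0.56, and none was called. Hba-a1, an alpha-globin gene, stood from 5.12 to 5.29 in WT and from 5.46 to 6.01 in R6/2 (difference 0.56 ± 0.12, adjusted p 0.0710). The summed red cell signal was 179 to 244 in WT and 228 to 388 in R6/2. On WT 3 the list's centred mean was 0.04. The part of residual blood in the vascular values was not tested.

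In the authors' deposited table, none of the member probes had a corrected p under 0.05, where 0.399% of the probes tested here did. The lowest in the authors' deposited table was 0.109, for the dimmer Pdgfb probe, followed by 0.127 for Abcg2 and 0.156 for Tagln. The authors' deposited table gave fold changes of 1.56 for Tagln (down) and 1.20 for Abcg2 (up).

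Arrays of one genotype correlated between 0.9833 and 0.9907 in WT and between 0.9893 and 0.9921 in R6/2 over all tested probes. On each array 61.47% to 67.71% of the probes lay clearly over background, and no spot was saturated. All 8 arrays shared 1 slide and 1 scan, with WT in the first slide column and R6/2 in the other, so slide column and genotype cannot be told apart. The number of arrays limits the precision.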

How the data were processed

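Striatal RNA was hybridised to 8 one-colour Agilent arrays, 4 per genotype. Per the file headers, Feature Extraction 10.7.3.1 made the deposited intensity values, with spatial detrending of the processed signal and no scaling between arrays. In the table the authors deposited, values are on a log2 scale and comparisons are given as p-values and fold changes. Its normalization is not given in the sources used here.

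Processed signals were divided by the 75th percentile of their own array before log2 was taken. Outlier-flagged spots were left out, and spots of a probe were averaged. Probes well above background on at least 4 of 8 arrays (35121 of 55681) were fitted on genotype with limma 3.58.1 (R 4.3.3), adjusted by Benjamini-Hochberg over all of them and called below an adjusted p of 0.05. Of several tested probes the brightest on average stood for the gene. Probes were named through RefSeq (GRCm38.p6), 26762 by accession, 5056 by gene number and 2243 by symbol, with 21620 unnamed. The fit was tested on simulated data, in which 200 probes were changed. It recovered 40.3% of the 1.5-fold, 67.2% of the 2-fold and 90.9% of the 3-fold changes, so small changes can go uncalled.

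Members and lists were chosen with earlier results of these data known. In full were given the defining markers and the members whose groups did not overlap, and from other lists each called gene, or else the 2 of smallest p, of which 1 is not reported here. Other members named were described after their values were seen.

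Same-numbered samples deviated together from their group means (correlations of 0.222, 0.183, 0.356 and 0.133, each best with its own number), so the numbers were taken to pair the samples. The numbers are also the slide rows. The main fit was on genotype alone and did not use this pairing, which entered only as the replicate block among the alternatives. That block gave 283 called probes, against 529 in the main fit.

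A bound sets the mean of the brighter genotype against, per array of the other, the lowest signal that passed the background test or the signal of the probe itself, whichever was higher.

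Alternatives were another background correction, scalings, filters, flags, the replicate block, array weights, variance models, the authors' log2 values, the mean over a gene's probes, and each array left out.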

Additional observations from a re-analysis of the deposited data

Results flagged for a closer look

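In 8 of the 92 groups of 4 arrays (46 genes in 2 genotypes, 8.70%), 1 array lay farther from the others than Dixon's criterion for 4 values allows. Chance gives about 1 in 20 such groups, and over all genes the share was 7.29% in WT and 5.80% in R6/2. WT 3 was that array for 5 of the 8. It was the highest WT array for Vwf (log2 signal 2.75, next highest -0.05), Ifitm1 (1.17, next -0.72), Esam (1.27, next 0.35), Pecam1 (-1.32, next -2.01) and Abcb1a (0.83, next 0.45). R6/2 3 was the highest R6/2 array for Slco1a4 (1.39, next 1.00) and Tie1 (-2.31, next -2.73). WT 2 was the highest for Flt4 (-0.52, next -5.75), which was under background on every other array.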

How the results depend on the processing

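The 3 class medians stayed negative under every alternative run, with array WT 3 bringing them nearest to 0 among the arrays left out for the endothelial and pericyte genes (ranges leaving out 1 array: -0.242 to -0.047 endothelial, -0.211 to -0.001 pericyte, -0.253 without R6/2 3 to -0.051 without R6/2 2 for smooth muscle). Without both arrays numbered 3, an alternative chosen after seeing the data, they were -0.108, -0.095 and -0.131. With array weights the pericyte median was -0.034. Median scaling moved the median of all genes from 0.02 to 0.099, the class medians to -0.095, -0.07 and -0.086, and the members with a positive difference from 10 to 16.

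The called probes (529) and genes (340) numbered 981 and 654 under normexp, 228 and 151 under median scaling, 110 and 84 with no filter, 283 and 183 with the replicate block, 1125 and 694 with array weights, 1024 and 685 with a variance trend and robust estimation, 29 and 21 without both arrays numbered 3, and 100 to 505 and 81 to 328 leaving out 1 array. Averaging probes gave 532 genes. Called members (0) were 1 (Tagln) under normexp, the filter on all 8 arrays, the variance trend and averaged probes, 2 (Tagln and Tpm2) with array weights, and 0 to 1 leaving out 1 array. With the replicate block Tagln had an adjusted p of 0.107, Notch1 and Tnnt2 lost their calls, and no call changed among the members or for Myl4.

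Over 20 alternatives to 44 member values, 43 of 880 turned sign, in 13 genes, and 31 genes kept theirs throughout. Slco1a4 gave 0.00938 under normexp and 0.0645 under median scaling, Erg -0.00309 under normexp, and Cnn1 0.0287 under quantile normalization. Median scaling also gave 0.006 for Pdgfrb, 0.00209 for Anpep, 0.0245 for Notch3, 0.0612 for Vtn and 0.0375 for Cnn1. Vtn gave 0.0767 with array weights, and averaged probes gave -0.216 for Ocln and -0.225 for Kdr. Without both arrays numbered 3, Pecam1 gave 0.00675, Sox17 -0.015 and Ifitm1 0.0553. Leaving out 1 array, the ranges were -0.0939 to 0.198 (Ocln), -0.106 to 0.197 (Slc2a1), -0.071 to 0.256 (Erg), -0.182 to 0.0773 (Pecam1), -0.113 to 0.0513 (Slco1a4), -0.154 to 0.0153 (Pdgfrb), -0.147 to 0.0335 (Anpep), -0.115 to 0.11 (Vtn), -0.539 to 0.156 (Ifitm1), -0.185 to 0.141 (Cnn1), -0.0202 to 0.0694 (Kdr), 0.00983 to 0.188 (Sox17) and -0.163 to 0.0236 (Notch3). The cause was not tested. A block for slide or scan was not run, since all arrays shared 1 of each.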
